A study of Mus musculus with 6 samples.

Results

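The genes described here are 39 receptors, adaptors, kinases and effectors of microglia and other myeloid cells. They were measured in retinas of DBA/2J mice, an inbred strain in which pressure in the eye rises with age and glaucoma follows. Members were found as all probe sets of the Affymetrix mouse array whose annotation names 1 gene and that gene is on the list. Of the 39 genes, 37 had such a probe set and together they had 70, of 45037 on the array after Affymetrix controls were left out. Lyn and Spp1 were not analysed here. In 18 of the 37 genes there was more than 1 probe set, and probe sets of the same gene are not independent measurements of the retina.

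Each array held the RNA of 1 retina from a separate female animal, with 3 retinas at 3 months and 3 at 8 months, all of the DBA/2J strain and none from another strain. The last pressure of the sampled eyes was between 15.3 and 19.1 mmHg at 3 months and between 25.3 and 30.4 mmHg at 8 months. Animals were picked by pressure, so age and pressure cannot be told apart. Right eyes were sampled at 8 months only, in retinas 2 and 3. A retina holds few microglia among many neurons, and in whole tissue more cells of a type and more RNA per cell cannot be told apart.

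Microglia are the resident phagocytes of the retina. Many of their receptors, among them activating Fc receptors and TREM2, have no signalling tail of their own. They pair with small adaptors that carry an immunoreceptor tyrosine-based activation motif (ITAM). Src-family kinases phosphorylate that motif, SYK docks on it, and VAV, RAC and actin regulators then drive adhesion, migration and phagocytosis. Purinergic, chemokine and growth factor receptors keep microglia alive and steer their processes toward injury. In models of glaucoma, microglia of the optic nerve head and retina are known to change shape and number.

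Most members were dim in whole retina. A probe set was taken as measured where at least 3 of the 6 retinas reached 4 on the log2 scale of the deposited signal. This held for 15 of the 70 member probe sets, or 21.4%, from 13 genes, against 46.6% of all probe sets. The other 55 lay below it, and in 13 of them the highest of the 6 values was under 2.5, near the lowest values on the arrays. Nearest to the limit on the inside, by the third highest value, were a further Skap2 probe set at 4.07, Rac2 at 4.14 and Selplg at 4.16. Nearest on the outside were Cd68 at 3.86, a further Csf1r probe set at 3.83 and Cd52 at 3.64. As a check of the tissue, all 10 photoreceptor genes and all 6 Müller glia genes that had a probe set were measured.

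**Figure D1:**
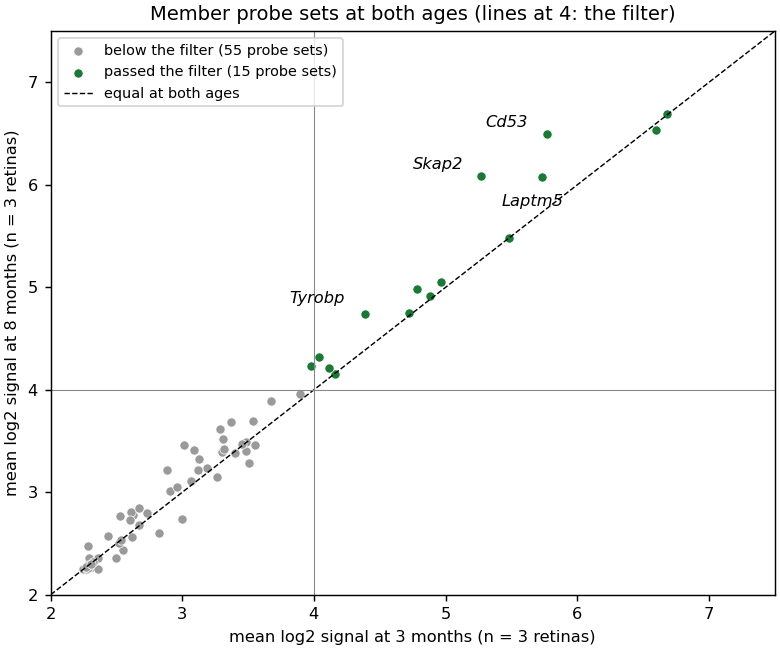
Mean log2 signal at 8 months against that at 3 months for the 70 member probe sets, each a mean over 3 retinas. Green points passed the filter (15) and grey points did not (55), the grey lines mark 4 on either axis, and the dashed line marks equality. Most points lie low and close to the line, while Skap2, Cd53, Tyrobp and Laptm5 lie above it.

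No member passed the test of age over all genes. The smallest adjusted p of a member was 0.177 (limma, Benjamini-Hochberg over 20973 probe sets), and over the whole array 1 probe set passed, 0.00477%. At an unadjusted limma p under 0.05, 3 of the 15 measured member probe sets were higher at 8 months and 0 were lower. Over all measured probe sets that rule called 4.63% as higher and 10.3% as lower. The 3 were Skap2, Tyrobp and Cd53, and in the same 3 every older retina lay above every younger one. Such separation was seen in 6.89% of all measured probe sets upward and 14.9% downward.

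The difference was above 0 in 13 of the 15 member probe sets, against 40.6% of all measured probe sets. The median log2 difference, 8 months minus 3 months, was 0.10 over the 15 and -0.04 over all. The count of differences above 0 moved when single retinas were left out. It was 8 of 15 without 3-month retina 2, 10 of 15 without 3-month retina 1 and 9 of 14 without 8-month retina 2, and 10 of 15 with eye side in the model. The median was 0.02 with eye side and 0.26 without 3-month retina 3. Of all probe sets at an unadjusted p under 0.05, 971 were higher and 2155 lower. That split moved to 1385 and 1410 after quantile normalization and 1446 and 1386 after cyclic loess. It was 787 and 2558 after centring each array on its median, and 2159 and 1002 when the median was taken over measured probe sets only. Skap2, Tyrobp and Cd53 were higher at an unadjusted p under 0.05 under each of these scalings.

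Skap2 differed most. It encodes a cytosolic adaptor that links Src-family kinases and integrins to actin in myeloid cells, and it is also expressed outside the immune system. Its brightest probe set read 5.21, 5.30 and 5.30 in the 3-month retinas 1 to 3 and 6.15, 5.90 and 6.21 in the 8-month retinas 1 to 3 (log2). The ages were far apart for the spread within each, with a gap between the highest younger and the lowest older retina larger than the spread at either age. The log2 difference was 0.82 ± 0.10 (SE, n = 3 each), a 1.76-fold higher level at 8 months (limma unadjusted p = 9.47e-05, adjusted p = 0.177). Leaving out any single retina gave differences from 0.75 to 0.91.

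The other Skap2 probe sets moved less. A second measured one read 3.99, 3.88 and 4.07 at 3 months and 3.91, 4.41 and 4.39 at 8 months, with 8-month retina 1 among the younger values. Its log2 difference was 0.26 ± 0.15 (SE; limma unadjusted p = 0.125, adjusted p = 0.444). The remaining probe set, below the filter, differed by 0.22 because 8-month retina 2 read 3.92 while the other 5 retinas lay between 3.27 and 3.33. The size of the Skap2 difference thus depended on the probe set, and its sign did not.

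Tyrobp encodes DAP12, the ITAM adaptor that carries the signal of TREM2 and related receptors. It read 4.26, 4.47 and 4.43 in the 3-month retinas and 4.65, 4.85 and 4.73 in the 8-month ones (log2). All older retinas were above all younger ones, by a narrow margin. The younger mean was 4.39 ± 0.11 and the older mean 4.74 ± 0.10 (SD, n = 3 each). The log2 difference was 0.35 ± 0.10 (SE), a ratio of 1.28 (limma unadjusted p = 0.00768, adjusted p = 0.232).

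Fcer1g encodes the other common ITAM adaptor, the gamma chain that serves activating Fc receptors. It read 4.73, 4.81 and 4.82 at 3 months and 4.80, 5.22 and 4.93 at 8 months (log2). The ages overlapped because 8-month retina 1 lay within the younger range. The log2 difference was 0.20 ± 0.12 (SE; limma unadjusted p = 0.140, adjusted p = 0.461). Fcgr3, a low-affinity activating receptor for IgG that pairs with that chain, read 4.23, 3.74 and 4.15 at 3 months and 4.46, 4.34 and 4.16 at 8 months. Its log2 difference of 0.28 ± 0.15 (SE) did not pass either (limma unadjusted p = 0.105, adjusted p = 0.420).

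Apart from Fcgr3, the Fc receptor genes and Trem2 were below the filter. Trem2, a lipid-sensing receptor, read 2.95, 2.93 and 2.84 at 3 months and 3.05, 2.95 and 3.04 at 8 months in one probe set (log2), with the older retinas above the younger ones by 0.11 on average. In the other, which matches less specifically, it read 3.69, 3.40 and 3.36 at 3 months and 3.41, 3.40 and 3.40 at 8 months, overlapping. The high-affinity receptor gene Fcgr1 and the inhibitory receptor gene Fcgr2b stayed at or below 3.33 and 3.53 in every probe set and retina. Of the 6 genes grouped here as ITAM adaptors and receptors, the inhibitory Fcgr2b among them, 3 were thus measured. All 3 had differences above 0, and 1 of them was separated by age. Over all measured probe sets 40.6% had differences above 0, and 6.89% were separated upward.

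Cd53 encodes a tetraspanin, a membrane organiser restricted to leukocytes. Its measured probe set read 5.90, 5.67 and 5.73 in the 3-month retinas and 6.02, 7.09 and 6.37 in the 8-month ones (log2). The ages did not overlap, but 8-month retina 1 lay just above the younger retinas and 8-month retina 2 far above them. The means were 5.77 ± 0.12 and 6.49 ± 0.55 (SD, n = 3 each), a log2 difference of 0.72 ± 0.25 (SE) and a ratio of 1.65 (limma unadjusted p = 0.0242, adjusted p = 0.285). The difference ranged from 0.43 to 0.96 when single retinas were left out. A second Cd53 probe set gave no reading above 2.30 in any retina.

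Laptm5, a lysosomal membrane protein of blood cells, had the older retinas in the same order as Cd53. Its measured probe set, which may match other transcripts, read 5.52, 5.83 and 5.84 at 3 months and 5.76, 6.37 and 6.11 at 8 months (log2). Here 8-month retina 1 lay within the younger range, and 8-month retina 2 was highest. The log2 difference was 0.35 ± 0.17 (SE; limma unadjusted p = 0.0781, adjusted p = 0.383). A dimmer Laptm5 probe set read 3.04, 3.11 and 2.89 at 3 months and 3.44, 3.42 and 3.53 at 8 months, separated by age but below the filter. The other 3 differed by between -0.09 and 0.20.

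**Figure D2:**
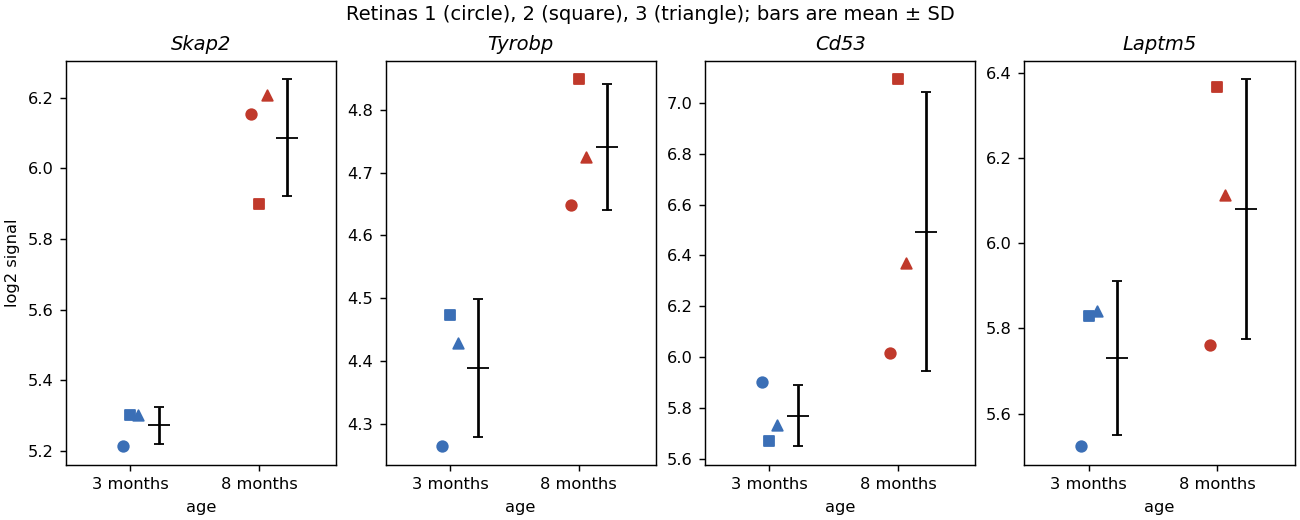
Log2 signal of Skap2, Tyrobp, Cd53 and Laptm5 in each of 3 retinas per age (probe set of highest mean; separate vertical scales that do not start at 0), with the mean ± SD beside them. In Skap2, Tyrobp and Cd53 all 8-month retinas lie above all 3-month ones, and in Laptm5 8-month retina 1, at 5.76, lies among them.

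For Skap2 and Cd53, the genes with the largest differences, the reference sequence before the gene's start is shown to set their promoters side by side. The 250 bases before the start are given 5′ to 3′ on the gene's strand, from RefSeq on GRCm38.p6, the C57BL/6J genome, so any difference of the DBA/2J strain is not in them. Both lie on the minus strand, Cd53 at chr3:106790150-106790399 and Skap2 at chr6:52012550-52012799. Capitals mark GAGGAA, a core of the site of PU.1, the transcription factor that specifies myeloid cells, on either strand.
Cd53: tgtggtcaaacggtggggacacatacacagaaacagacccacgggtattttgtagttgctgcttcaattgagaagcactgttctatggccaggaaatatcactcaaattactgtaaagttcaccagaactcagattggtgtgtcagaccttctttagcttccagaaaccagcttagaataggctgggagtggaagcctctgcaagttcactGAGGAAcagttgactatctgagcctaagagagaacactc
Skap2: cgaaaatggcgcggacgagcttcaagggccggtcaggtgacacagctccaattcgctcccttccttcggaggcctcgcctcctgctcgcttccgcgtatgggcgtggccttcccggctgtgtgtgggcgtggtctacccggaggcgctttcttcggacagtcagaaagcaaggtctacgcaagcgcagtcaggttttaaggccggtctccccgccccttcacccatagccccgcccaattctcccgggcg
The Cd53 window holds GAGGAA once, 39 bases before the start, and the Skap2 window holds none. They also differ in composition. The Cd53 window is 45.2% G and C with 2 CpG dinucleotides, and the Skap2 window 64.0% with 24, where the median of all windows is 52.4% and 6. GAGGAA on either strand occurred in 23.3% of 32851 such windows of all genes. The table had windows for 27 members, 33 in all, of which 16 held it (48.5%). The other motif searched, TTGCNNAA of C/EBP factors, occurred in neither window, in 9.56% of all windows and in 5 of the 33 of members. A match in these letters is a description and not evidence of binding.

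Growth factor, chemokine and purinergic receptors were nearly all below the filter. Csf1r, the receptor for CSF1 and IL-34 on which microglia depend to survive, had 1 measured probe set of 3. It read 4.91, 4.60 and 5.39 at 3 months and 5.28, 4.63 and 5.24 at 8 months (log2), with the ages fully interleaved. The log2 difference was 0.08 ± 0.24 (SE; limma unadjusted p = 0.738, adjusted p = 0.887). Its sign changed when any of 3-month retina 2, 8-month retina 1 or 8-month retina 3 was left out.

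Cx3cr1, the receptor for the neuronal chemokine fractalkine, had 2 probe sets. One read 2.78, 2.77 and 2.92 at 3 months and 2.52, 2.58 and 2.72 at 8 months, lower by 0.21 with separated ages. The other read 3.32, 3.31 and 3.32 at 3 months and 3.31, 3.47 and 3.48 at 8 months, higher by 0.11 with overlapping ages. P2ry12, the ADP receptor of resting microglia, read 3.36, 3.03 and 2.59 at 3 months and 2.75, 2.74 and 2.74 at 8 months. The spread of P2ry12 among the younger retinas was wider than the difference between ages. P2ry13 and P2ry6, further nucleotide receptors, stayed at or below 2.77 and 2.73. Gpr34, a receptor for lysophosphatidylserine, read between 2.96 and 3.65. None of these was measured well enough on these arrays for a comparison of ages.

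The ligands of these receptors came from a list of partners on neurons, glia and vessels. Of 18 listed genes 12 were measured, with a median log2 difference of 0.05 and 0 passing over all genes. Differences were above 0 in 8 of the 12, against 40.6% of all measured probe sets. Cx3cl1, which encodes fractalkine, differed by 0.27 ± 0.23 (log2, SE; limma adjusted p = 0.594). Csf1 and Il34 were below the filter. The smallest p values belonged to Gas6, a bridging ligand of phagocytic receptors, to Cd47, a signal against phagocytosis, and to the TGF-beta receptor gene Tgfbr1. Their log2 differences were -0.33, 0.21 and -0.13 (limma adjusted p = 0.262, 0.457 and 0.476). Ages were separated downward in 2 of the 12, Gas6 and Tgfbr1, and upward in 0. Over all measured probe sets these shares were 14.9% and 6.89%.

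The integrins and most other surface proteins gave no reading above the filter. Itgam, the CD11b chain of the complement receptor, read 2.26, 2.30 and 2.26 at 3 months and 2.25, 2.26 and 2.26 at 8 months, at the floor in all 6 retinas. Itgax and Itgb2, its sister chain and their common partner, read at most 2.37 and 2.70. Ptprc, the leukocyte phosphatase CD45, read 2.46, 2.85 and 2.28 at 3 months and 2.76, 2.51 and 3.02 at 8 months in its brighter probe set. Its dimmer probe set read at most 2.53, and the ages overlapped in both. Tmem119, a marker of resident microglia, read 3.09, 3.05 and 3.06 at 3 months and 2.997, 3.22 and 3.11 at 8 months, overlapping. Cd14, a co-receptor for bacterial lipopolysaccharide, was below the filter with a log2 difference of 0.32 and overlapping ages, and Cd52, a small glycoprotein of leukocytes, with one of 0.16.

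Msr1, a scavenger receptor, had 4 probe sets, all below the filter. The brightest was higher at 8 months by 0.33 with separated ages, and another, at the floor, was lower by 0.11 with separated ages. Selplg, the ligand of selectins, passed the filter with readings between 4.16 and 4.17 in every retina. A value that flat carried no difference to test, at a log2 difference of -0.004. Of the 10 genes for integrins and other surface proteins, Cd53 and Selplg were the 2 measured.

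Among kinases, adaptors and cytoskeletal effectors, 5 of 9 genes were measured and Skap2 was the one separated by age. Over all measured probe sets 6.89% were separated upward and 14.9% downward. Coro1a, an actin-binding coronin of leukocytes, read 6.48, 6.66 and 6.92 at 3 months and 6.37, 6.90 and 6.79 at 8 months in its brightest probe set (log2). Its other measured probe set ran alike, and 8-month retina 1 was the lowest of all 6 in both. The differences were 0.003 and -0.06 (limma adjusted p = 0.995 and 0.871). Inpp5d, the SHIP-1 lipid phosphatase that restrains ITAM signalling, differed by 0.03 ± 0.12, and Rac2, a GTPase of blood cells, by 0.10 ± 0.14 (log2, SE; limma adjusted p = 0.914 and 0.753). Plek, a substrate of protein kinase C in platelets and phagocytes, differed by 0.004 with all retinas between 5.43 and 5.53.

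A second Inpp5d probe set, below the filter, was higher at 8 months by 0.19 with separated ages. Syk, the kinase that docks on the ITAM, had 4 probe sets, none reading above 3.54 and all with overlapping ages. Vav1, an exchange factor for RAC proteins, read at most 3.11. Aif1, the actin-bundling protein IBA1 used to stain microglia, read 2.62, 2.63 and 2.64 at 3 months and 2.64, 2.67 and 3.03 at 8 months. The Aif1 difference came from 8-month retina 3 alone.

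Other genes of ITAM signalling were taken from a list of 29, of which 13 were measured. Of these 6 had a difference above 0, against 40.6% of all measured probe sets. The median log2 difference was -0.002, and 0 passed over all genes. Fyb, an adaptor that binds SKAP proteins, read 3.61, 3.78 and 3.61 at 3 months and 4.13, 4.12 and 4.004 at 8 months. The younger retinas were below 4 and the older ones at or above it, so Fyb passed the filter through the older retinas alone and its difference of 0.41 is given as a description, with no test. Fermt3, an activator of integrins in blood cells, was higher by 0.37 with separated ages, in a less specific probe set (limma adjusted p = 0.269). Plcg1, a phospholipase expressed in many tissues, was lower by 0.22 with separated ages (limma adjusted p = 0.395). The counts of 13 and 6 include Fyb, whose separation follows from how it passed the filter. Apart from Fyb, ages were separated upward in Lat2 and Fermt3 and downward in Plcg1 and Ptpn11. Over all measured probe sets the shares were 6.89% upward and 14.9% downward.

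The lysosomal and oxidase members were below the filter except for Laptm5. Cd68, a lysosomal glycoprotein of phagocytes, read 3.84, 3.99 and 3.86 at 3 months and 3.84, 3.83 and 4.22 at 8 months (log2), overlapping. Mpeg1, a pore-forming protein of macrophages, read 2.91, 2.89 and 2.84 at 3 months and 3.19, 3.18 and 3.28 at 8 months. The separation of Mpeg1 was clean but lay near the bottom of the scale, and fitted without a filter it had an unadjusted limma p of 3.62e-04 and an adjusted p of 0.200. Cyba and Cybb, the membrane subunits of the phagocyte oxidase, read at most 3.64 and 2.97 with overlapping ages. Of 8 listed partners of the oxidase, Rac1 and Noxo1 were measured, with log2 differences of 0.002 and -0.19 (limma adjusted p = 0.995 and 0.630), and Ncf1 and Ncf4 were below the filter, Ncf1 higher by 0.09 with separated ages.

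Over the 55 member probe sets below the filter, 6 had all older retinas above all younger ones and 3 the reverse, or 10.9% and 5.45%. Over all 24064 probe sets below the filter these shares were 4.97% and 6.12%. The 6 were Laptm5, Mpeg1, Msr1, Inpp5d, P2ry6 and Trem2, and the 3 were Cx3cr1, Itgam and another Msr1. Their differences lay between -0.21 and 0.45, at a level where the processing by the authors holds readings close together. The Itgam difference, for example, was -0.02.

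The older retinas differed among themselves. Among the 15 measured member probe sets, 8-month retina 2 was the highest older retina in 9 and 8-month retina 1 the lowest in 8, against 31.1% and 36.6% of all measured probe sets. The median deviation from the 3-month mean was 0.02 in 8-month retina 1, 0.22 in retina 2 and 0.15 in retina 3. Cd53, Laptm5, Fcer1g and Tyrobp all had the order retina 2, then 3, then 1. So did Plek and the brightest Coro1a probe set, whose log2 differences between ages were 0.004 and 0.003. Skap2 had retina 3 highest and retina 2 lowest. Without 8-month retina 1, 5 member probe sets were higher at an unadjusted limma p under 0.05 (Cd53, Laptm5, Tyrobp and both of Skap2), where 3.01% of all probe sets were. In 7 the ages then did not overlap, against 10.4% of all, the added ones being Coro1a, Fcer1g, Laptm5 and the second Skap2 probe set.

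**Figure D3:**
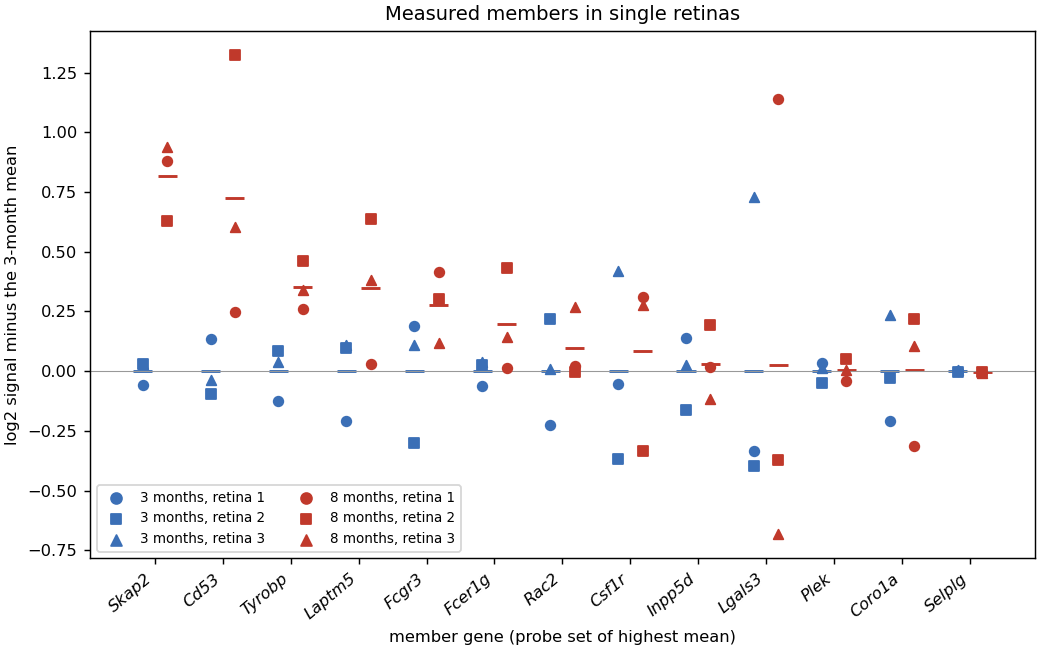
Log2 signal of the 13 measured member genes in each retina, minus the gene's 3-month mean, ordered by the difference between ages (blue 3 months, red 8 months; bars are age means). Skap2, Cd53 and Tyrobp are separated by age, Lgals3 is high in 8-month retina 1 and 3-month retina 3, and Selplg is flat.

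The low value of 8-month retina 1 cannot be told apart from other features of that eye. It was the one left eye at 8 months, with the lowest pressure of the 3, at 25.3 against 26.5 and 30.4 mmHg. It was also rich in lens transcripts, as was 3-month retina 3. With eye side in the model, which sets 8-month retina 1 alone against the 3 younger left eyes, the log2 difference was 0.88 for Skap2, 0.26 for Tyrobp and 0.25 for Cd53. The age arm of that fit is 1 retina, assumed to vary like the other groups, and its unadjusted limma p values were 0.00258, 0.108 and 0.402. For Lgals3 the same fit gave 1.14 (unadjusted p = 0.0441), and for Laptm5 0.03.

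Lgals3 encodes galectin-3, a lectin of activated phagocytes that epithelia also make. It read 4.39, 4.32 and 5.45 in the 3-month retinas and 5.86, 4.35 and 4.04 in the 8-month ones (log2). It was thus high in 3-month retina 3 and 8-month retina 1 and low in the other 4, with no order by age. The log2 difference was 0.03 ± 0.51 (SE; limma unadjusted p = 0.958, adjusted p = 0.985). The same 2 retinas had the highest lens signal. Readings of Cryba1, a crystallin, were 13.53 and 12.53 there, while the others lay from 3.93 to 8.90. Over the 13 lens genes, of which 9 were measured, the log2 of the summed signal was 8.16 to 15.07 at 3 months and 7.62 to 14.14 at 8 months. Without both retinas the Lgals3 difference was -0.16, with the remaining 4 between 4.04 and 4.39.

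The other members did not follow that pattern to the same degree. Without both retinas, Skap2, Tyrobp, Cd53 and Laptm5 were higher at an unadjusted limma p under 0.05, 4 of 14 measured member probe sets against 2.31% of all. The ages did not overlap in 7 of 14, against 14.2% of all, and the median log2 difference of the 14 was 0.22. Olfml3 and Sall1, often used as microglial genes, were also highest in 8-month retina 1, at 5.67 and 7.55. For Sall1, 3-month retina 3 came next at 6.94, and the other 4 retinas lay from 5.22 to 5.67.

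**Figure D4:**
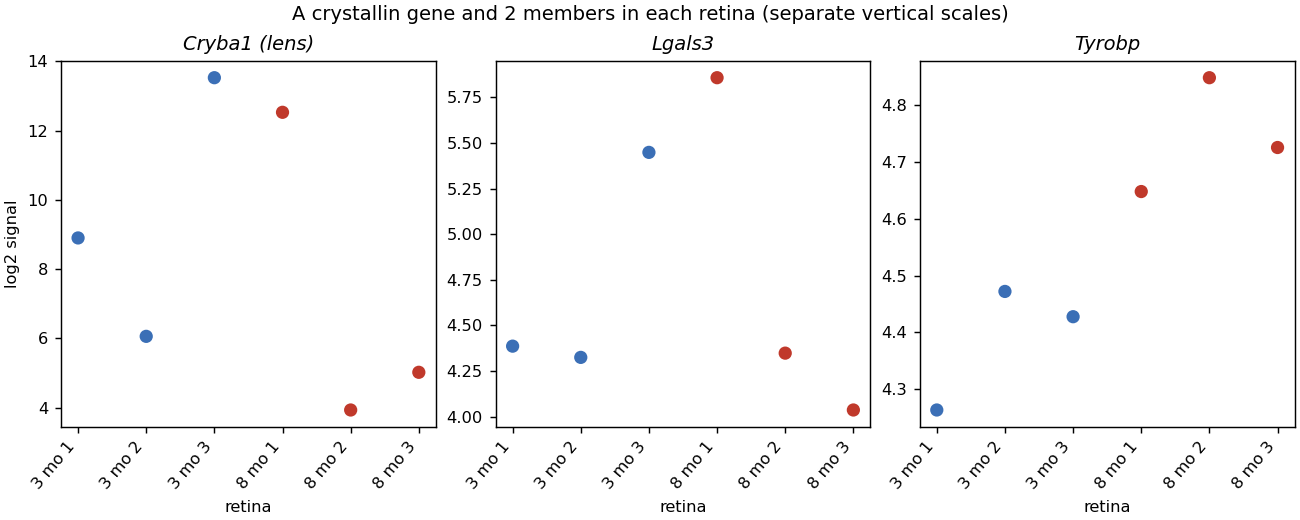
Log2 signal of the crystallin gene Cryba1 and of the members Lgals3 and Tyrobp in each of the 6 retinas (blue 3 months, red 8 months; separate vertical scales that do not start at 0). Lgals3 is highest in the same 2 retinas as Cryba1, 3-month retina 3 and 8-month retina 1, and Tyrobp is separated by age.

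Genes of microglia outside the member list were read beside them. Of 10 listed, 9 had a probe set and 5 were measured, and 0 passed over all genes. All 5 had differences above 0, where 40.6% of all measured probe sets did. Ages were separated upward in 2 of the 5, C1qb and Ctss, where 6.89% of all were. C1qb, a chain of the complement initiator C1q, was read in a less specific probe set. C1qb and Ctss, a lysosomal protease, had log2 differences of 1.05 ± 0.18 and 0.65 ± 0.11 (SE; limma adjusted p = 0.177 for both). Both were highest in 8-month retina 2, at 8.37 and 9.21, as were Tyrobp and Cd53. Siglech, a lectin that pairs with DAP12, differed by 0.04. That difference came from 8-month retina 3 alone, at 4.23, where the other retinas read 4.11 to 4.12. Olfml3 and Sall1 differed by 0.72 and 0.44, with overlapping ages and 8-month retina 1 highest. In 8-month retinas 2 and 3 Olfml3 read 4.11 and 4.09 and Sall1 5.62 and 5.67, all within the younger range. C1qa, C1qc, Fcrls and Slc2a5 were below the filter with overlapping ages. Their log2 differences were 0.13, 0.004, -0.39 and -0.02. The log2 of the summed signal of the list was 9.10 to 9.35 at 3 months and 9.78 to 10.03 at 8 months. Such a sum weighs the brightest probe sets most.

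Markers of blood cells that a retina could hold were mostly below the filter. For perivascular or infiltrating macrophages 1 of 9 genes was measured, Lyve1, which was lower at 8 months by 0.66 with separated ages (limma adjusted p = 0.220), and Lyve1 also marks lymphatic and other endothelium. Ccr2, the receptor of infiltrating monocytes, read at most 2.91, and Adgre1, a surface antigen of macrophages, at most 3.16. The genes below the filter went both ways. Log2 differences were 0.45 for F13a1, 0.29 for Mrc1, 0.25 for Ccr2, 0.16 for Cd209f and 0.06 for Pf4. They were -0.01 for Ms4a7, -0.05 for Adgre1 and -0.20 for Cd163. Ages were separated upward in Cd209f and downward in Cd163, where 4.97% and 6.12% of all probe sets below the filter were. Mrc1 was highest in 8-month retina 2, at 4.11. Of 8 neutrophil genes S100a9 was measured, at a log2 difference of 0.18 with overlapping ages. T and NK cells had 2 of 8 measured and B cells 0 of 4, and Cd3e and Cd79a stayed at or below 2.45. The log2 of the summed signal at 3 and 8 months was 6.93 to 7.07 and 6.66 to 7.01 for the macrophage list. It was 5.97 to 6.05 and 6.01 to 6.18 for neutrophils, 6.15 to 6.29 and 6.31 to 6.34 for T and NK cells, and 4.36 to 4.47 and 4.40 to 4.47 for B cells. Of these sums that of T and NK cells was separated by age, by a margin of hundredths. The part of blood cells in the differences of the members was not tested.

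The red cell list, a sign of blood left in the tissue, varied between single retinas. Its summed signal was 7.29 to 9.39 at 3 months and 7.51 to 8.81 at 8 months on the log2 scale, and readings of the beta-globin gene Hbb-b2 were 9.33 for 3-month retina 2 and 8.72 for 8-month retina 2. The second retina was therefore the richest in globin at each age, and 8-month retina 2 was also the one highest in Cd53, Laptm5, Fcer1g and Tyrobp. In 3-month retina 2 Tyrobp was the highest of the 3 younger retinas, at 4.47, Laptm5 and Fcer1g lay between the other two, at 5.83 and 4.81, and Cd53 was the lowest, at 5.67. The part of blood in these differences was not tested. Without 8-month retina 2 the log2 difference was 0.43 for Cd53, 0.30 for Tyrobp and 0.91 for Skap2. Gfap, a filament of astrocytes and reactive Müller glia, was read in a less specific probe set. It read 4.25, 4.72 and 4.27 at 3 months and 4.87, 5.83 and 5.75 at 8 months (log2). Its difference of 1.07 ± 0.27 (SE; limma unadjusted p = 0.00523, adjusted p = 0.223) was larger than that of any member, with separated ages and 8-month retina 1 lowest of the older ones. Its part in the differences of the members was not tested.

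Genes of phagocytosis and activation, taken as a list of 32, were measured in 11. Of these 6 had a difference above 0, against 40.6% of all measured probe sets. The median log2 difference was 0.01 and 0 passed over all genes. Beyond Ctss, the smallest p values belonged to Ccl6, a chemokine of myeloid cells, with a log2 difference of 0.30 and separated ages (limma adjusted p = 0.272), and to Lpl, a lipase, with one of -0.33 and separated ages (limma adjusted p = 0.376). Ly86, a partner of a Toll-like receptor relative on myeloid cells, read 4.61, 4.74 and 4.88 at 3 months and 4.60, 6.23 and 5.75 at 8 months. It was high in 8-month retinas 2 and 3 and in the younger range in retina 1. The cytokine gene Tnf was measured and differed by 0.008 with overlapping ages. Il1b, the Toll-like receptor genes Tlr2, Tlr4 and Tlr7 and the chemokine genes Ccl2, Ccl3 and Ccl4 were below the filter, with overlapping ages. Pycard, an inflammasome adaptor, and the chemokine gene Cxcl10, also below it, were higher by 0.18 and 0.04 with separated ages. Ccl12, a further chemokine gene below the filter, had a log2 difference of 0.75 with overlapping ages. It read 2.69, 3.05 and 3.05 at 3 months and 2.81, 4.23 and 3.995 at 8 months.

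Transcription factors of myeloid cells were taken as a list of 17, of which 11 were measured and 0 passed over all genes. The median log2 difference was 0.03, and 6 were above 0, against 40.6% of all measured probe sets. In 0 of the 11 were the ages separated, where 6.89% of all were separated upward and 14.9% downward. The smallest p values were those of Etv6, Mef2c and Elf1, with log2 differences of -0.26, 0.18 and -0.14 (limma adjusted p = 0.409, 0.431 and 0.534), genes that many retinal cells express. Spi1, which encodes PU.1, was below the filter. It read 3.71, 3.50 and 3.65 at 3 months and 3.65, 4.25 and 3.70 at 8 months, with 8-month retina 2 highest. Irf8, a partner of PU.1 and the member of this kind, read at most 2.95 in its brighter probe set, with a log2 difference of 0.18 and overlapping ages.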

How the data were processed

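Retinal RNA was amplified, biotin-labelled and hybridised to 6 Affymetrix mouse arrays, per the labels' protocols. The deposited values are log2 signals per probe set. The submitters' processing notes name GCRMA 1.1.0 and R 1.9.0, and the options are not given in the sources used here. GCRMA subtracts a background modelled from probe sequence, and weak signals end up near a floor where differences shrink. Arrays have no read depth, and their number limits the precision.

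After removal of 64 control probe sets, those that reached 4 in at least 3 of the 6 arrays were tested, 20973 of 45037. Gene names come from the platform annotation. A member gene is represented by its measured probe set of highest mean. The suffixes _s_at and _x_at mark probes that may bind more than 1 gene's transcripts. A 2-group linear model was fitted per probe set in limma 3.58.1 (R 4.3.3) with moderated variances, two-sided, with no covariate, and with Benjamini-Hochberg adjustment over all probe sets tested. The function was tested on simulated data. With 3 against 3, the smallest exact permutation p is 0.1, so no permutation test was used. Levels of different probe sets were not compared with each other.

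All members were accounted for. Per-retina values were given for measured members at an unadjusted p under 0.05 or with separated ages and for a fixed set of microglial markers, and up to 3 genes of smallest p were named from each further list. Gfap, Ly86, Cx3cl1, Spi1, Tnf and the genes listed as below the filter were named after their values were seen. The members, lists and tests were chosen with earlier results of these data known, so no list was tested as a set. The alternatives were other filters and scalings, eye side as a covariate, the replicate block, another eBayes prior, no less specific probe sets, and leaving out retinas.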

Additional observations from a re-analysis of the deposited data

How the results depend on the processing

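No member passed the adjusted limma threshold under any of the 17 alternatives, and Skap2, Tyrobp and Cd53 kept their direction in each one that measured them. The unadjusted limma p stayed under 0.05 in 16 of 16 alternatives for Skap2, 15 of 16 for Tyrobp (not with eye side) and 13 of 17 for Cd53. Cd53 lost it with eye side, with no filter (0.0553) and without 3-month retina 2 or 3, where the p reached 0.0759. The filter at 6 left 3 member probe sets, of Cd53 and Coro1a. Over all probe sets, 1 passed as reported, 0 with no filter, eye side, the replicate block or without both crystallin-rich retinas, and 0 without any single retina. The count was 2 with the filter at 6, quantile normalization, cyclic loess or centring over measured probe sets, which was added after seeing the data, and 3 with a trend and robust prior. Members higher at an unadjusted p under 0.05 numbered 5 of 70 with no filter, 1 of 3 with the filter at 6, 5 of 15 with centring over measured probe sets and 2 to 5 when single retinas were left out, where 3.33%, 5.32%, 10.2% and 2.79% to 6.95% of all probe sets were. Members lower numbered 1 of 70 with no filter (Cx3cr1), where 5.91% of all were. Without any single retina they numbered 0, where 6.44% to 12.7% of all were. With eye side, where the older arm is 1 retina, the log2 difference was 0.88 for Skap2, 1.14 for Lgals3 and -0.31 for Coro1a. Members with all older retinas above numbered 9 of 70 with no filter, 1 of 3 with the filter at 6, 7 of 14 without both crystallin-rich retinas, 7 of 15 with centring over measured probe sets and 3 to 7 without single retinas, where 5.86%, 6.96%, 14.2%, 17.0% and 9.71% to 13.7% of all were. Members with all older retinas below numbered 3 of 70 with no filter, where 10.2% of all probe sets were. They numbered 1 of 15 (Selplg) after quantile normalization, median centring or cyclic loess, where 10.3%, 18.8% and 9.95% of all were. Without single retinas they numbered 0 to 1, where 19.6% to 26.2% of all were. The median log2 difference of the members was 0.0032 with the filter at 6, 0.023 with eye side, 0.036 with no filter, 0.22 without both crystallin-rich retinas and 0.10 to 0.26 without single retinas.

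Members with differences near 0 changed sign. Coro1a became -0.31 with eye side and -0.019 after median centring, and Plek -0.043 and -0.018. Lgals3 became -0.16 without both crystallin-rich retinas, and Selplg 0.079 with centring over measured probe sets. Without single retinas the ranges were -0.10 to 0.16 for Coro1a, -0.10 to 0.30 for Csf1r, -0.049 to 0.11 for Inpp5d, -0.53 to 0.39 for Lgals3, -0.020 to 0.027 for Plek and -0.016 to 0.20 for Rac2. The cause of these changes was not tested. With the replicate block 4 of 15 members were higher at an unadjusted limma p under 0.05, with Laptm5 added, where 4.46% of all probe sets were. Deviations from the age means correlated at -0.14, 0.06 and -0.28 between retinas of the same replicate number. With 3 retinas per age, these values cannot decide whether equal numbers mark paired retinas.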
